A study of Mus musculus with 12 samples.

Results

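Barcodes whose RNA was rich in messages for secreted plasma proteins were examined in mouse liver. Single-cell RNA sequencing (10x Genomics droplets, in which each RNA molecule is counted once by a unique molecular identifier, UMI) was run on dissociated livers of embryos (E16.5) and of pups 3 days after birth (P3). Members were chosen by measured RNA alone: a barcode was taken when it held at least 1000 UMIs, at most 15% of them from mitochondrial genes, and when albumin (Alb), alpha-fetoprotein (Afp), apolipoproteins A-I and A-II (Apoa1, Apoa2), transthyretin (Ttr) and fetuin-A (Ahsg) together made up at least 3% of its UMIs. This gate took 2062 of the 184493 barcodes that passed the UMI and mitochondrial limits, and the other 182431 are called the rest.

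All mice came from crosses of Jag1Ndr/+ parents, so every group shared that background, and the groups were Jag1+/+, Jag1Ndr/+ and Jag1Ndr/Ndr. Ndr is the Nodder missense allele of Jag1, the gene of the Notch ligand jagged 1, carried in the germ line and thus in all cells. TrypLE, a trypsin substitute, was in the digestion at E16.5 only, dead cells were removed with magnetic beads, and Jag1Ndr/Ndr pups at P3 were recognised by jaundice, per the labels' protocols. The series lists 2 mice per genotype and stage, but the matrices held fewer distinct libraries.

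In the embryos the same matrix stood under both of the labels Jag1+/+ replicate 2 and Jag1Ndr/+ replicate 2, and it is here the shared library, which leaves 5 libraries. At P3 there were 4, named A to D. A and B carried the Jag1+/+ labels of replicates 1 and 2, but their barcodes came back under other labels, so their genotype is unclear. All 15754 barcodes of Jag1Ndr/+ replicate 2 lay in B, and the 33923 barcodes of Jag1Ndr/Ndr replicate 2 shared 18105 with A and 16145 with B, so those 2 matrices were not used. C held the barcodes of Jag1Ndr/Ndr replicate 1 after 19927 that it shared with A were taken out, and D was Jag1Ndr/+ replicate 1. Lists of values are given in the order Jag1+/+ replicate 1, shared, Jag1Ndr/+ replicate 1, Jag1Ndr/Ndr replicates 1 and 2 at E16.5, and A, B, C, D at P3. Nothing more is stated of how the mice were related, so p-values measure the spread between these libraries, which may be technical.

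In the fetal liver, hepatoblasts and young hepatocytes grow among a much larger mass of blood-forming cells. They release most plasma proteins, among them albumin, clotting factors, protease inhibitors and lipoproteins. Around birth the placental supply of glucose ends and milk fat becomes the main fuel, and the liver takes on gluconeogenesis, fatty acid oxidation, ketone production and bile formation. Jagged 1 signals to Notch receptors on neighbouring cells and is known in the liver for the formation of bile ducts.

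Promoters of 4 genes are shown. Alb and Afp are the leading gate genes of E16.5, and Apoa4 and G6pc are 2 of the genes with a large rise. Apoa5, Igfbp2 and Pck1 rose more than G6pc (log2 fold changes of 9.46, 7.92 and 7.43 against 7.40) and are not printed. Alb and Afp are neighbours on chromosome 5, and Apoa4 and G6pc were almost without UMIs at E16.5 and rose by P3. Each sequence runs 5′ to 3′ from 250 bases before to 50 bases after a RefSeq start (GRCm38.p6), on the plus strand. Capitals mark matches to GTTAATNAT, a core of the site bound by the hepatocyte factor HNF1, searched on both strands. The positions are chr5:90460620-90460919 for Alb, chr5:90490464-90490763 for Afp, chr9:46240594-46240893 for Apoa4 and chr11:101367466-101367765 for G6pc.
Alb: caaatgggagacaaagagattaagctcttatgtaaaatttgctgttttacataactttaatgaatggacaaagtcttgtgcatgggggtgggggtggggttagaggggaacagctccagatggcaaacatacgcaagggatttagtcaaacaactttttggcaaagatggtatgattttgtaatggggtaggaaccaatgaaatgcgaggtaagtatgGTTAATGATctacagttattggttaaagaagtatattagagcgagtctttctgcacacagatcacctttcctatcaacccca
Afp: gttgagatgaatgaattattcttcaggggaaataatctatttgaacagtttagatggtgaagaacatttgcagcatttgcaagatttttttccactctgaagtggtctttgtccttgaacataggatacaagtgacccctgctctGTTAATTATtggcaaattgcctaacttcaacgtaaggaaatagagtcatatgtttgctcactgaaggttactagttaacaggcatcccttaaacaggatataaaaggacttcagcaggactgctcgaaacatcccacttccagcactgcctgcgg
Apoa4: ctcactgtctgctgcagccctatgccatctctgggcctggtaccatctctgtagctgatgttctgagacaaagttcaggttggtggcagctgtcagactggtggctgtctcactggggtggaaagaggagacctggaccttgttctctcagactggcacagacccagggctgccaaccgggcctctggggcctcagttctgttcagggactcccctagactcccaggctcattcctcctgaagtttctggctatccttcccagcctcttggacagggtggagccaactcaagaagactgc
G6pc: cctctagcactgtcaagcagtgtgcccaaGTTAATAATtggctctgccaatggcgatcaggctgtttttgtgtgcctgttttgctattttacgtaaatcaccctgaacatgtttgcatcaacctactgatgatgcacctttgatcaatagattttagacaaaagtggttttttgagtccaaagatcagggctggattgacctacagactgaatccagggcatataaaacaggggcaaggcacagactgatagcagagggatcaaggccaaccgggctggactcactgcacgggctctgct
The capitals begin 32 bases before the start in Alb, 105 bases before it in Afp and 221 bases before it in G6pc. The printed window of Apoa4 holds no match, and neither do those of 5 further genes searched but not printed (Apoa5, Pck1, Dlk1, Igfbp2 and Cyp2e1), so 3 of 9 genes held it. All 3 are printed, so the printed windows favour genes with a match. Apoc3, Cyp4a14, Serpina6 and Hp were sought as well but had no window in the set used. Of 32851 mouse promoter windows of this length, 0.801% held the motif. On both strands of the same 9 genes, a core of the HNF4 site (CAAAGTCCA, in 0.475% of all windows) and one of the C/EBP site (TTGCNNAAT, 2.40%) had no match, and TATAAA (13.6%) was in the windows of 4 genes, Afp, G6pc, Apoa5 and Cyp2e1. GENCODE M21 starts Apoa4 and G6pc 148 and 155 bases before the RefSeq start used here, so only 102 and 95 bases of these windows lie upstream by that annotation, and the match in G6pc begins 66 bases before its start. A match of letters is a description and does not show that a factor binds.

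Members were few in every library. The E16.5 libraries held 212, 406, 297, 279 and 357 members, and the P3 libraries 226, 133, 61 and 91. As a share of passing barcodes this was 1.12, 1.97, 1.02, 1.52 and 1.35% at E16.5 and 1.05, 0.758, 0.406 and 0.534% at P3. The shared library was the highest and C the lowest, and the stages overlapped only where library A lay above the Jag1Ndr/+ library of E16.5. The mean share was 1.40% ± 0.375 (SD, n = 5) at E16.5 and 0.687% ± 0.283 (SD, n = 4) at P3 (two-sided exact permutation test, p = 0.0238). Leaving out 1 library gave p-values from 0.0286 to 0.0571, and it was above 0.05 without any one of Jag1+/+ replicate 1, the shared library, Jag1Ndr/Ndr replicates 1 and 2, B, C or D. With a minimum of 2000 UMIs the P3 mean was 0.557%. That minimum removed no passing barcode at E16.5, where the mean was 1.40% as before, or in C, and it removed some in A, B and D. In such shares, the number of hepatocytes in the liver and the number that outlast digestion and bead removal cannot be told apart, and the digestion differed by stage.

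**Figure D1:**
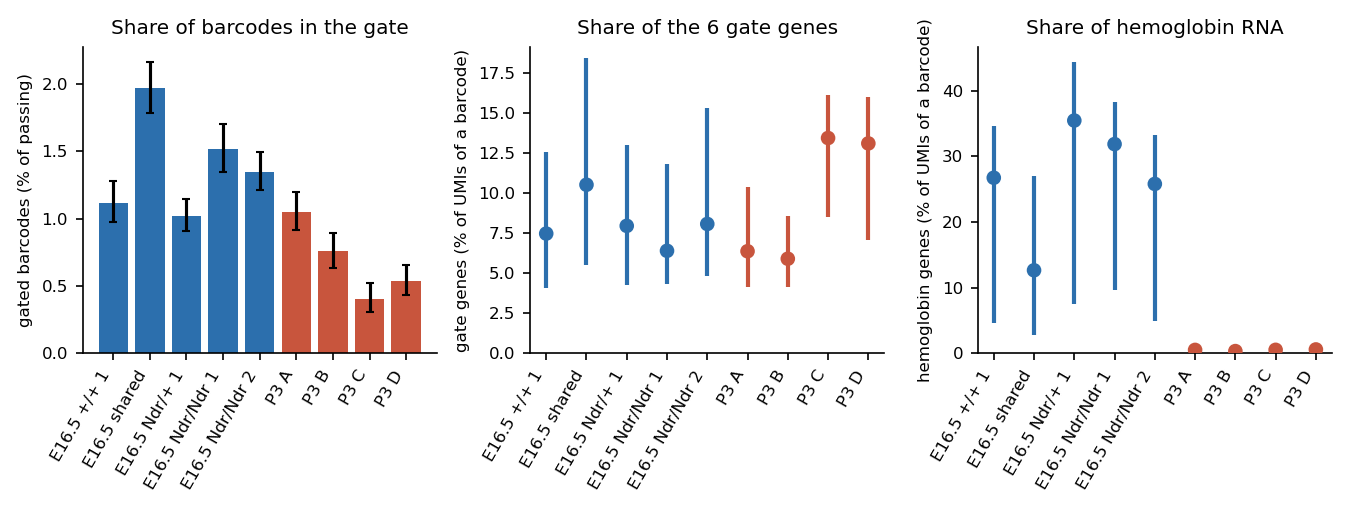
Share of passing barcodes in the gate (left, bars with exact 95% binomial intervals), and medians (points) with quartiles (lines) over members of the share of gate genes (middle) and of hemoglobin genes (right), in percent, for each of 9 libraries, E16.5 in blue and P3 in red. Shares run from 0.406% in library C to 1.97% in the shared library, and median hemoglobin is 12.7% or more in every E16.5 library and under 1% in every P3 library.

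The label was checked on 12 other hepatocyte genes that the gate did not use (Apob, Fga, Fgb, Fgg, Serpina1a, Serpina1b, Trf, Ambp, Apoh, Vtn, Hnf4a and Itih2). Together they made up 3.38% ± 0.255 (SD, n = 5) of the UMIs of members at E16.5 and 4.02% ± 0.358 (SD, n = 4) at P3. In the rest they made up 0.0473% and 0.0198%. Every library of members lay above every library of the rest, from 3.02% upward against 0.0563% or less. These genes are co-expressed with the gate genes, so the contrast describes the members and no test was made.

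Genes were also ranked by their ratio of members to rest, gate genes left out, with 10 CPM added to both sides. CPM is the usual unit for a gene's UMIs scaled to all UMIs of the members of a library, here averaged over libraries. The addition lowers the rank of genes with few UMIs in the rest, so the order is not that of the plain ratio. At E16.5 the leading genes were the 3 fibrinogen chains, with Fgb at 3174 CPM in members and 36.9 CPM in the rest. Transferrin (Trf, the iron carrier of plasma), beta-2-glycoprotein I (Apoh) and corticosteroid-binding globulin (Serpina6) followed. At P3 the order was Rbp4, the retinol carrier, with 10307 CPM against 33.1 CPM, then Apoc4, Fgb, hemopexin (Hpx), the IGF-binding protein gene Igfbp2 and kininogen (Kng1). Fabp1, a fatty acid carrier inside the cell, was also among the first 20 at P3.

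Members carried RNA of blood cells, and at E16.5 much of it. The median share of hemoglobin UMIs per member was 26.8, 12.7, 35.5, 31.9 and 25.8% in the E16.5 libraries and 0.520, 0.339, 0.531 and 0.590% at P3. Erythroid markers (8 genes, among them 4 globin genes, Alas2 and Slc4a1) summed to 8.79 to 15.5% of member UMIs at E16.5 and 1.83 to 3.75% at P3, against 30.8 to 55.8% and 16.1 to 24.1% in the rest. Neutrophil markers ranged from 0.434 to 1.05% across the E16.5 libraries and from 0.469 to 1.09% across those of P3. Markers of macrophages, endothelium, mesenchyme, B cells, megakaryocytes and cholangiocytes each summed to at most 0.0843% in every library of members. Mesenchymal markers had means of 0.0282% in members and 0.00381% in the rest at E16.5, and 0.00574 and 0.00490% at P3. For endothelial markers these were 0.0207 and 0.00876%, then 0.0201 and 0.0105%. Megakaryocyte markers had means of 0.0367 and 0.0228% at E16.5 and 0.00444 and 0.0681% at P3, but the E16.5 libraries differed in direction. Members held 0.0843 and 0.0685% in Jag1Ndr/+ replicate 1 and Jag1Ndr/Ndr replicate 1, and the rest 0.0138 and 0.0110%. In Jag1+/+ replicate 1 and the shared library members held 0.00306 and 0.00184%, and the rest 0.0190 and 0.0442%. In Jag1Ndr/Ndr replicate 2 the values were 0.0260 and 0.0259%. Macrophage, B cell and cholangiocyte markers had lower means in members than in the rest at both stages. Single libraries went the other way. Members were slightly higher for macrophage markers in Jag1+/+ replicate 1 and Jag1Ndr/+ replicate 1 of E16.5, and for cholangiocyte markers in A. Scrublet, a caller of 2-cell droplets, marked 0 to 2.65% of members and 4.11 to 13.4% of passing barcodes. Whether the hemoglobin RNA was free in the droplet or came from another cell was not tested.

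How strongly a barcode passed the gate went with what else it held. In members with 3 to 5% gate RNA, the other hepatocyte markers made up 1.03% ± 0.211 (SD, n = 5) of UMIs at E16.5 and 1.78% ± 0.445 (SD, n = 4) at P3. At 10 to 20% gate RNA they made up 3.99% ± 0.500 and 4.63% ± 0.251. The median hemoglobin share at E16.5 was 35.8% in the first of these bins (437 barcodes), 30.0% at 5 to 10% gate RNA (460 barcodes), 5.21% at 10 to 20% (492 barcodes) and 5.27% at 20 to 40% (161 barcodes). Median depth rose from 3703 UMIs in the first bin to 21808 UMIs in the third at E16.5, and from 2129 to 10979 UMIs at P3. At 20 to 40% gate RNA median depth was lower than in the third bin, at 15290 UMIs at E16.5 and 9110 UMIs at P3 (8 barcodes). These are descriptions, since the gate set the bins.

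At the edge of the gate the barcodes changed little. Members with 3 to 3.5% gate RNA numbered 138 at E16.5 and held 0.826% other hepatocyte markers, beside 0.701% in the 198 barcodes with 2.5 to 3% just outside. Their median hemoglobin share was 38.3% inside and 36.3% outside. At P3 the 41 barcodes just inside held 1.74% and the 51 just outside 1.42%. The median gate share of members also differed among P3 libraries, at 6.38 and 5.91% in A and B and 13.5 and 13.1% in C and D. No member barcode was shared between 2 libraries of 1 stage, and 1 barcode sequence recurred between a library of E16.5 and one of P3.

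**Figure D2:**
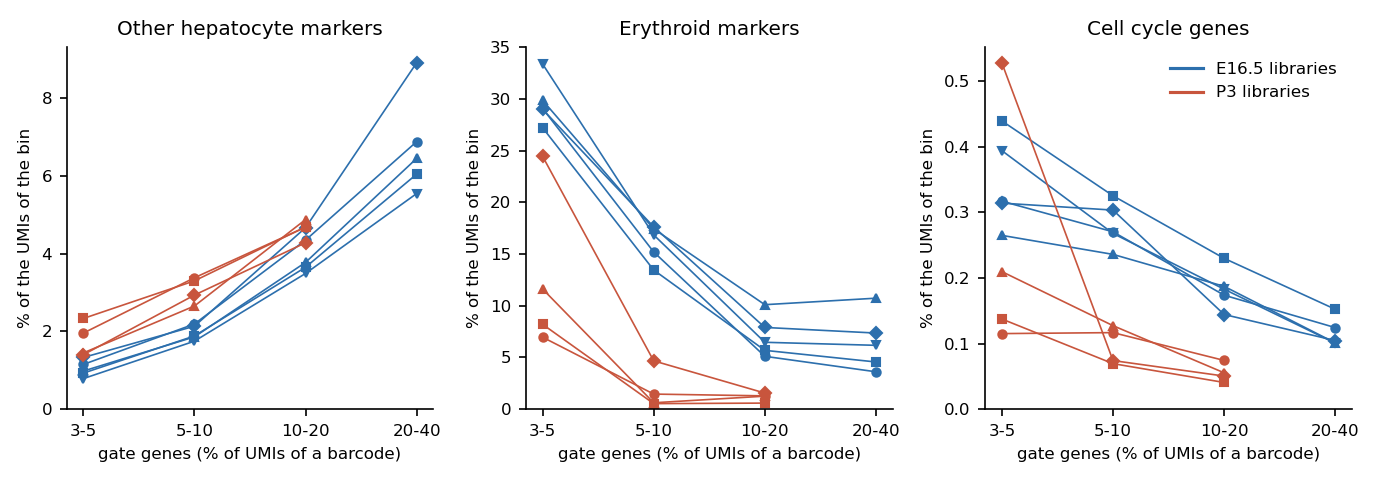
Summed UMIs of other hepatocyte markers, erythroid markers and cell cycle genes as a percent of all UMIs of members (y), in 4 bins of the gate genes' share of a barcode (x, percent), 1 line per library, E16.5 in blue and P3 in red (bins under 5 barcodes not drawn). Other hepatocyte markers rise with the gate share in all 9 libraries, and erythroid markers at E16.5 fall from 27.2 to 33.4% in the first bin to 5.11 to 10.1% in the third.

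The 6 gate genes changed places between the stages. Alb, the main carrier protein of plasma, held 5.58% ± 0.676 (SD, n = 5) of member UMIs at E16.5 and 2.38% ± 0.536 (SD, n = 4) at P3. Afp, its fetal counterpart, went from 3.67% ± 0.958 to 1.25% ± 0.339. The other 4 were higher at P3. Ahsg went from 0.948% ± 0.108 to 2.81% ± 0.656, Apoa1 from 0.524% ± 0.0489 to 1.85% ± 0.113, Apoa2 from 0.833% ± 0.179 to 1.85% ± 0.502, and Ttr, the thyroxine carrier, from 0.745% ± 0.110 to 1.33% ± 0.719. The stages did not overlap for Alb, Afp, Ahsg, Apoa1 or Apoa2, and overlapped for Ttr, where A and B held 0.725 and 0.692% and C and D 1.89 and 2.01%. Since the gate uses their sum, each gene was also read in barcodes gated on the other 5 alone. Alb was then 6.26% and 2.44%, Afp 3.91% and 1.27%, and Apoa1 0.528% and 1.90%, in the same order of stages. No test was made on gate genes.

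**Figure D3:**
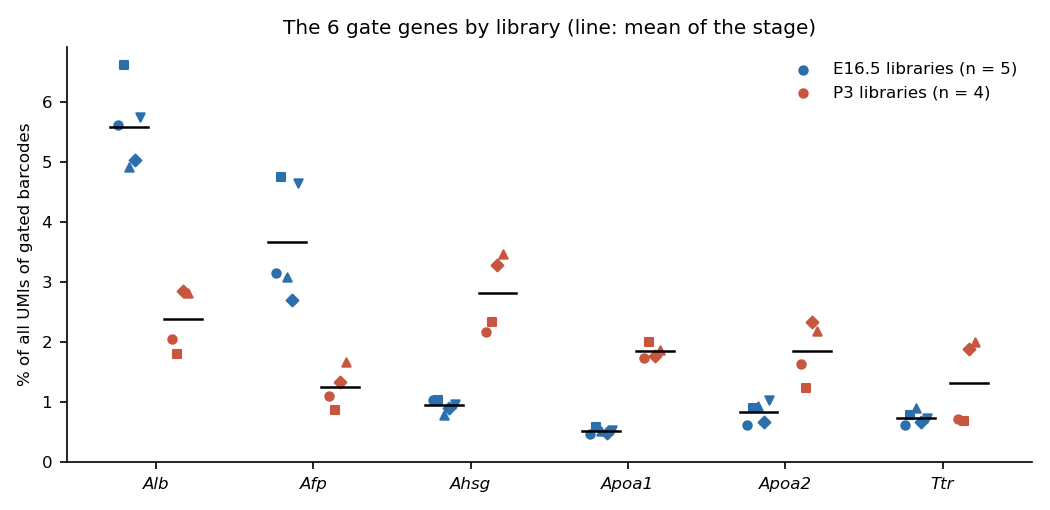
Percent of all UMIs of members (y) for each of the 6 gate genes (x), 1 point per library (5 blue at E16.5, 4 red at P3), with black lines at stage means. Alb and Afp lie lower at P3, and Ahsg, Apoa1 and Apoa2 lie higher at P3 without overlap of the stages.

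Members were then compared between stages over all genes that both gene lists held, with UMIs summed per library and the quasi-likelihood test of edgeR, adjusted by Benjamini and Hochberg's method over 10226 genes. Of these, 4390 genes (42.9%) passed an adjusted p of 0.05, 2159 (21.1%) higher at P3 and 2231 (21.8%) lower. Of all genes tested, 33.3% both passed and had libraries of the stages that did not overlap. Among 3457 genes at least 2-fold above the rest in either stage, 50.2% passed, 33.3% higher at P3 and 17% lower. The median log2 fold change was -0.05 over all genes and 0.19 over those 3457. Lists of genes are read against these shares, and among 400 list and marker genes 356 had enough UMIs for the test. The 44 untested genes had means of at most 8.56 CPM in either stage, apart from H19, which the P3 gene list did not hold. A gene high in 1 stage passes that filter through that stage alone, so the counts describe the tested genes only. Stage cannot be told apart here from the digestion, from the software version and gene list (31053 genes at E16.5 and 22597 at P3), or from the hemoglobin RNA in members, whose share fell with it. Markers of other cells moved with stage as well. In members 7 of 8 erythroid and 4 of 7 tested mesenchymal markers fell, and 4 of 8 B cell markers rose. Of 8 neutrophil markers 2 rose, near the share over all genes (21.1%). None of 8 macrophage, 8 endothelial or 3 tested megakaryocyte markers passed by edgeR, with 1, 1 and 0 at an unadjusted p under 0.05. DESeq2 called 1, 2 and 2 of them. Among members with at least 10% gate RNA the neutrophil markers turned, with 3 of 8 lower at P3, none higher and a median of -1.16 (0.36 over all members), and 2 of 8 endothelial markers rose. There 2 of 5 tested B cell markers rose and 2 of 5 tested mesenchymal markers fell. At that gate 1705 of all 8374 genes tested rose and 1635 fell, so the endothelial count is near the share over all genes. With C and D as the only P3 libraries 1 of 7 mesenchymal markers fell, near the share of all genes (1587 of 10986). Of cholangiocyte markers 1 of 3 tested fell, and of the 12 other hepatocyte markers 7 rose and none fell. Among members with under 5% hemoglobin 3559 of 8966 genes were called, 3384 of them among the 4390. That subset does not remove the erythroid difference. There 7 of 8 erythroid markers still fell, with a median of -2.32, beside -2.60 over all members and -2.80 at a gate of 10%.

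The 12 genes with the largest rise had means of at most 14.9 CPM at E16.5. Apolipoprotein A-IV (Apoa4, a lipoprotein component known from intestine and newborn liver) stood at 0.36, 0, 0.434, 0 and 0 CPM in the E16.5 libraries and at 1122, 2007, 721 and 863 CPM at P3. Those E16.5 values rest on 3 UMIs of 20552478, so the ratio of the summed rates is 8351 with an exact counting interval from 2856 to 40511. Igfbp2 stood at 10.1, 18.6, 15, 10 and 20.8 CPM at E16.5 and at 4035, 3473, 2984 and 3159 CPM at P3. The stages were far apart, and edgeR gave an adjusted p of 8.9e-13 with a log2 fold change of 7.92 ± 0.25 (SE). With each member thinned to 1000 UMIs, Igfbp2 had a UMI in 1.85% of members at E16.5 and 83.2% at P3, beside 0.050% and 1.65% of the rest. Without thinning the members gave 11.8% and 93.1%. Pck1, which encodes the cytosolic PEPCK that starts gluconeogenesis, stood at 0.36, 12.5, 2.82, 0 and 3.32 CPM at E16.5 and at 776, 771, 438 and 704 CPM at P3 (log2 fold change 7.43 ± 0.80, SE, adjusted p = 0.00018).

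Genes of fatty acid omega-hydroxylation were among them. Cyp4a14 rose from 0 to 0.652 CPM at E16.5 to 405 to 829 CPM at P3, and its neighbour on chromosome 4, Cyp4a10, from 0 to 1.51 CPM to 166 to 343 CPM. The 2 genes are close relatives, and how their shared reads were counted is not given in the sources used here. Cyp1a2 and Cyp3a25, P450s of drug metabolism, and Hsd17b6, a steroid dehydrogenase, had at most 1.3 CPM in any E16.5 library and at least 17.2 CPM in any at P3. Apoa5, which lowers plasma triglyceride, rose from 0.434 to 1.21 CPM to 457 to 623 CPM. Serpina3m and Serpina3k, protease inhibitor genes, rose as well, but their annotated spans overlap on chromosome 12 and their counts are uncertain. Serpina3k and Ubd, a ubiquitin-like gene, had no UMI at E16.5. Against a floor of 3 UMIs over all E16.5 members, they were at least 265-fold and at least 159-fold higher at P3.

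Among the 12 genes with the largest fall, Ptp4a1, a phosphatase gene, came first, from 140 to 174 CPM to 0 to 1.24 CPM. It also stood lower at P3 in the rest, at 52.1 and 0.817 CPM. Only 1 UMI of it was counted in all P3 members, and the ratio of summed rates was 578 with an exact counting interval from 104 to 22852. The gene lists of the stages differ, and the part of that difference in this value was not tested.

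Serpina6 and Dlk1 followed. Serpina6, whose product binds corticosteroids in plasma, stood at 898, 1639, 1141, 829 and 1610 CPM at E16.5 and at 6.35, 2.48, 8.59 and 8.07 CPM at P3. Dlk1, a Notch-related surface protein of hepatoblasts, stood at 948, 1212, 1054, 877 and 1497 CPM at E16.5 and at 13.2, 8.69, 4.29 and 11.3 CPM at P3. The stages stood far apart for both, with log2 fold changes of -7.54 ± 0.35 and -6.66 ± 0.27 (SE, adjusted p = 4.2e-10 and 9.5e-12). The desaturase genes Scd2 and Scd1 fell from means of 831 and 183 CPM to 17.2 and 8.32 CPM, and alpha-2-macroglobulin (A2m) from 501 to 16.4 CPM. Cited1 (a transcriptional coregulator), Tnnc1 (a troponin), Itm2a, Slc36a2, and the stress-response genes Atf3 and Socs3 also fell by log2 changes between -3.87 and -4.71.

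**Figure D4:**
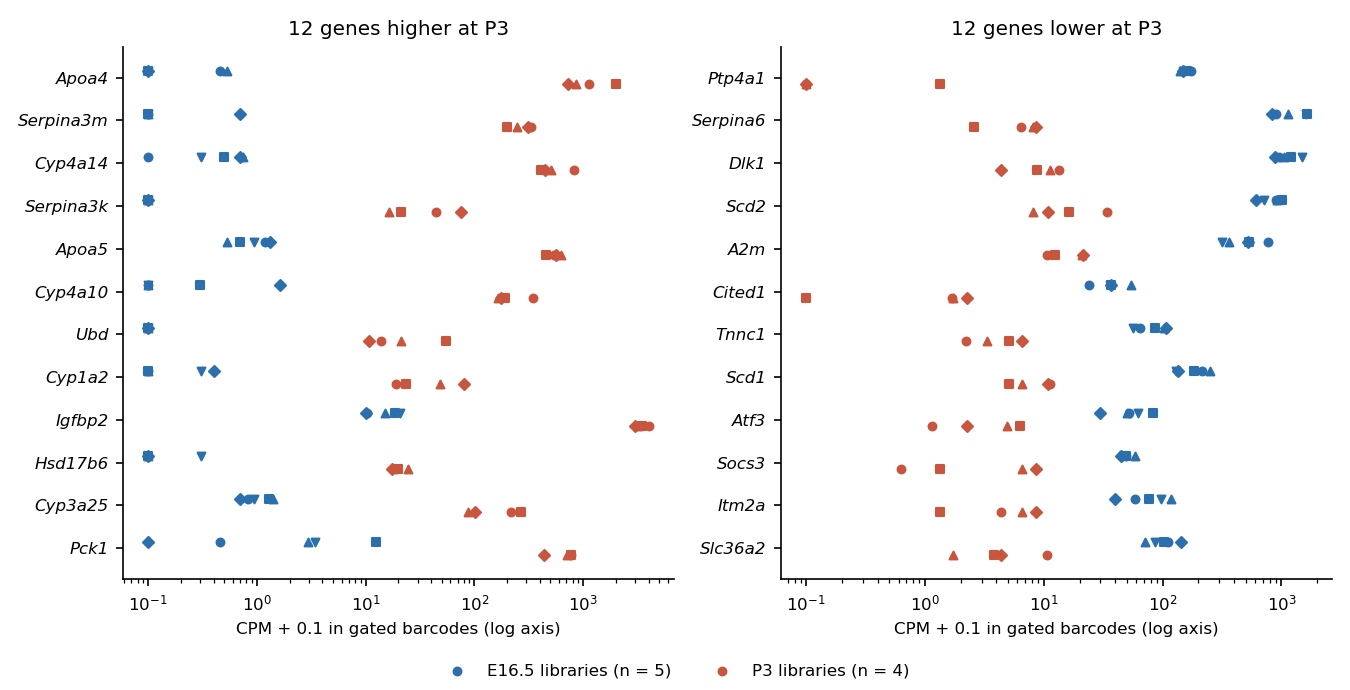
CPM plus 0.1 in members (x, log axis) for the 12 genes with the largest rise (left) and the 12 with the largest fall (right) from E16.5 to P3, 1 point per library, E16.5 in blue and P3 in red. In all 24 genes the stages do not overlap, which the choice of genes required.

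Genes of secreted proteins did not all move the same way. Of 21 coagulation genes tested, 12 rose, none fell and the median log2 fold change was 0.75. Histidine-rich glycoprotein (Hrg, a plasma regulator of clotting) rose most, from 14.1 to 20.6 CPM to 545 to 770 CPM (log2 fold change 5.32 ± 0.18, SE). Factor VII (F7), factor IX (F9) and factor X (F10) rose with log2 fold changes of 2.07, 1.50 and 1.35. Of the fibrinogen chains, Fgb rose from a mean of 3174 to 4959 CPM (adjusted p = 0.0017), while Fgg did not pass, at 2713 ± 489 CPM (SD, n = 5) and 2598 ± 922 CPM (SD, n = 4), with an adjusted p of 0.87 by edgeR. Fga did not pass either, at 2259.6 ± 385 CPM (SD, n = 5) and 1860.03 ± 567 CPM (SD, n = 4), with an adjusted p of 0.52 by edgeR, and the difference between the chains was not tested.

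Of 18 complement genes tested, of 19 on the list, 7 rose and 3 fell. These counts lie near the shares among genes at least 2-fold above the rest, of which 33.3% rose and 17% fell. C3, the central component, rose from 1576 to 4265 CPM, and the lectin Mbl2 from 14.3 to 255 CPM. C9, a part of the membrane attack pore, fell from 7.69 to 43.9 CPM to 1.59 to 3.23 CPM, with an adjusted p of 0.0070 that became 0.0573 without A. C1s1 and C8b, parts of the C1 and attack complexes, fell as well.

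Of 28 carrier, protease inhibitor and acute phase genes tested, of 36 on the list, 21 rose and 2 fell, with a median of 1.05. Haptoglobin (Hp), which binds free hemoglobin, stood at 235, 119, 72.5, 172 and 148 CPM at E16.5 and at 5275, 6741, 3111 and 4491 CPM at P3 (log2 fold change 5.15 ± 0.35, SE, adjusted p = 1.1e-06). The rest held 114 CPM of Hp at E16.5 and 404 CPM at P3. Hemopexin (Hpx), which binds heme, rose from 714 to 3502 CPM, fetuin-B (Fetub) from 30.7 to 635 CPM, and Lrg1 from 2.64 to 181 CPM. Transferrin (Trf) stood at 12105 ± 568 CPM (SD, n = 5) and 10866 ± 1599 CPM (SD, n = 4), and did not pass (adjusted p = 0.78 by edgeR). Serpina6 and Saa4 were the 2 of this list that fell. Saa4 did not pass without A and B and with the homozygous label as a term (adjusted p = 0.0502 by edgeR). A2m and Spink1, inhibitor genes outside this list, fell too (log2 fold changes of -4.95 and -3.62).

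Of 13 apolipoprotein and lipoprotein assembly genes beyond the gate, 10 rose and none fell, with a median of 1.98. Besides Apoa4 and Apoa5, Apoc3, which slows the clearance of triglyceride, rose from 10.9 to 210 CPM. Apoa1, Apoc3, Apoa4 and Apoa5 lie side by side on chromosome 9, between Apoa1 at chr9:46228580-46230466 and Apoa5 at chr9:46268633-46271919 (GRCm38, GENCODE M21). Of these, Apoc3, Apoa4 and Apoa5 passed as higher at P3. The sizes differed, with log2 fold changes of 4.40 ± 0.37 (SE) for Apoc3 and 9.46 ± 0.23 (SE) for Apoa5. Apoa1, a gate gene, was not tested, and Apoa4 and Apoa5 were named for their large rise. No support is drawn from their shared position. On chromosome 7, Apoe rose from 4145 to 16808 CPM, Apoc1 from 1680 to 6851 CPM and Apoc4 from 740 to 4684 CPM.

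Of 18 genes of fatty acid oxidation and ketogenesis tested, of 19 on the list, 15 rose and none fell, with a median of 1.40. Cpt1a, which admits long-chain fatty acids to mitochondria, stood at 16.2, 15.6, 15.6, 17.9 and 10.8 CPM at E16.5 and at 232, 173, 249 and 319 CPM at P3 (adjusted p = 4.1e-11 by edgeR). Acaa1b, a peroxisomal thiolase gene, rose from 17.4 to 352 CPM. The fatty acid binding protein Fabp1 rose from 760 to 6477 CPM.

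Of 10 tested genes of gluconeogenesis and glycogen, of 11 on the list, 6 rose and 1 fell. G6pc, the glucose-6-phosphatase that releases glucose to blood, stood at 1.08, 0.396, 1.09, 1.51 and 0.623 CPM at E16.5 and at 100, 50.9, 204 and 248 CPM at P3 (log2 fold change 7.40 ± 0.60, SE, adjusted p = 1.2e-05). Fbp1 rose from 146 to 1327 CPM. The glycogen phosphorylase gene Pygl fell from 244 to 153 CPM, but it did not pass with C and D as the only P3 libraries (adjusted p = 0.0927 by edgeR).

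Of 14 genes of fat and cholesterol synthesis, 10 fell and 1 rose, with a median of -1.28, and the 1 that rose was Fabp1, a carrier of fatty acids rather than an enzyme of their synthesis. Acly, which makes cytosolic acetyl-CoA, fell from 171 to 231 CPM to 25.8 to 50.8 CPM. The regulator gene Srebf1 fell from 52 to 14.2 CPM. With hemoglobin under 5%, 11 of the 14 fell.

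Of 14 urea cycle and amino acid genes tested, of 16 on the list, 10 rose and none fell. Asl rose from 69.8 to 281 CPM, Hpd from 103 to 793 CPM and Tat, which breaks down tyrosine, from 1.60 to 49.2 CPM. Ass1 did not pass (adjusted p = 0.17 by edgeR) and stood at 321 to 391 CPM at E16.5, at 903 and 981 CPM in A and B and at 230 and 242 CPM in C and D. It passed as higher at P3 without C (adjusted p = 0.0479) or without D (0.0423), and as lower with C and D as the only P3 libraries (log2 fold change -0.49, adjusted p = 0.0318). Of the periportal genes (a zone near the portal vein) 5 of 8 tested rose, and of the pericentral genes (near the central vein) 5 of 8 tested rose, with none falling in either list. With C and D as the only P3 libraries, 3 periportal genes rose and 1 fell, 6 pericentral genes rose and 1 fell, and 7 urea cycle and amino acid genes rose and 1 fell. At a gate of 10%, 3 periportal genes rose and none fell.

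Of 19 bile acid genes tested, of 24 on the list, 15 rose and none fell, with a median of 1.88. Slc10a1, the main bile acid importer of the blood side, stood at 106, 68.5, 64.3, 85.7 and 65.5 CPM at E16.5 and at 483, 372, 507 and 474 CPM at P3 (log2 fold change 2.67 ± 0.17, SE, adjusted p = 2.7e-09). The bile salt exporter Abcb11 rose from 40 to 56.5 CPM to 142 to 190 CPM. Cyp7a1, the rate-limiting enzyme of bile acid synthesis, rose from 19.3 to 66.8 CPM, and Cyp8b1 from 13.7 to 122 CPM. Nr0b2, a repressor of bile acid synthesis, rose from 0.208 to 0.594 CPM to 17.7 to 65.6 CPM. Among P450s and xenobiotic enzymes, 20 of 24 were tested, and 15 rose and 1, Ugt2b34, fell from 263 to 111 CPM. Cyp2e1, an enzyme of ethanol and fatty acid oxidation, rose from 4.13 to 21.6 CPM to 492 to 756 CPM.

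Of 19 hepatocyte transcription factors tested, of 20 on the list, 12 rose and 1 fell. The nuclear receptor gene Nr1i3, whose product senses xenobiotics, rose from 2.66 to 92.6 CPM, Creb3l3 from 66.2 to 260 CPM and Onecut1 from 9 to 47.1 CPM. Onecut1 did not pass without A and B and with the homozygous label as a term (adjusted p = 0.0766 by edgeR). Hnf4a, a central factor of hepatocyte identity, rose from 77.7 to 124 CPM (log2 fold change 0.79 ± 0.15, SE, adjusted p = 0.00035). Foxa1, a pioneer factor, fell from 9.70 to 3.19 CPM with overlap of the stages, but its adjusted p was above 0.05 without any one of the shared library (0.0607), Jag1Ndr/Ndr replicate 2 (0.0557), A (0.131), C (0.0664) or D (0.0685). Ppara, the receptor for fatty acids, rose from 35.7 to 98.2 CPM.

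**Figure D5:**
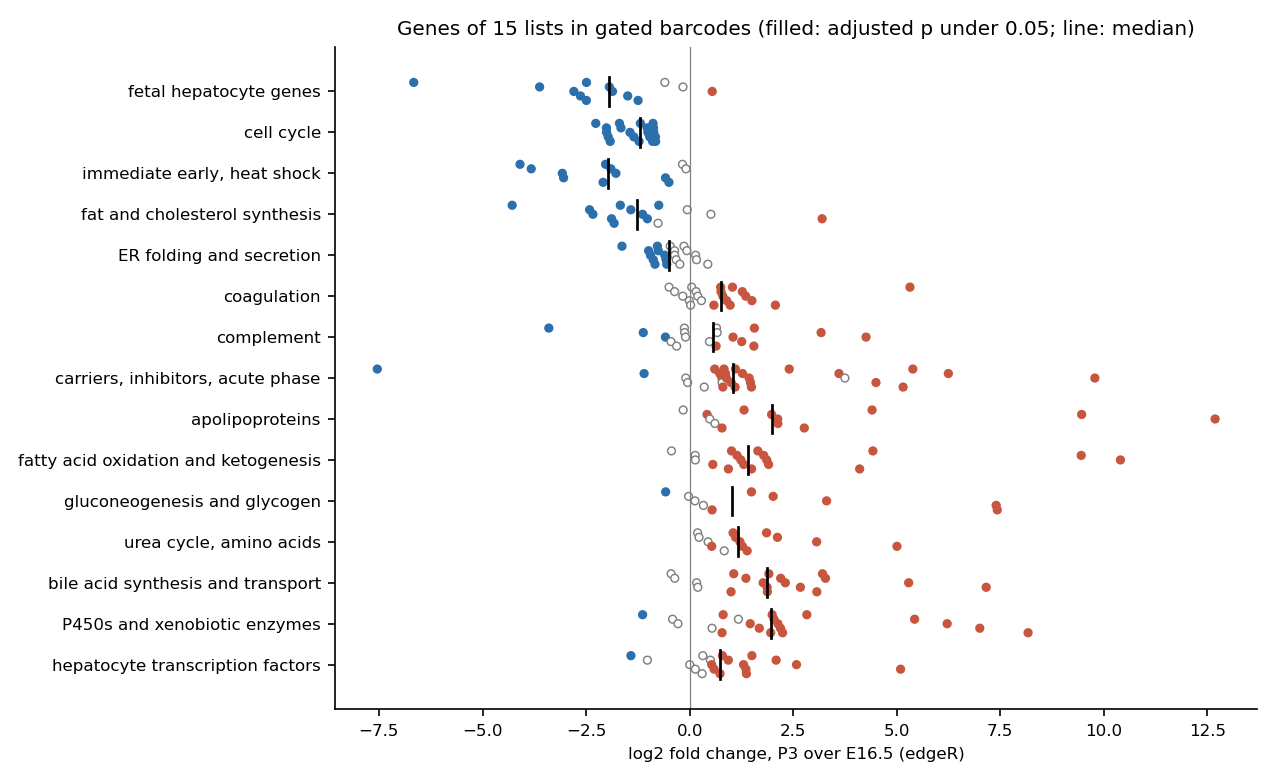
Log2 fold change from E16.5 to P3 in members (x) for the tested genes of 15 lists (y), filled where edgeR's adjusted p was under 0.05 (red higher, blue lower at P3), with black lines at list medians. All 20 cell cycle genes are filled and below 0, while 15 of 18 genes of fatty acid oxidation and ketogenesis are filled and above 0.

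Fetal hepatocyte genes fell, with exceptions. Of 13 tested, of 14 on the list, 10 fell and 1 rose, with a median of -1.94. Besides Dlk1, the trypsin inhibitor gene Spink1 fell from 901 to 66.1 CPM, Igf2, a fetal growth factor gene, from 104 to 33.4 CPM and the heparan sulfate proteoglycan gene Gpc3 from 532 to 207 CPM. Cd24a fell from 633 to 106 CPM, but the rest held more of it than members, at 1317 and 998 CPM. Igf2bp3 rose from 56.5 to 76.6 CPM (log2 fold change 0.54, adjusted p = 0.0088) with overlap of the stages, and it did not pass among members with under 5% hemoglobin, where the list gave 10 falls and no rise. At a gate of 10%, 7 of 12 tested genes of the list fell, and with C and D as the only P3 libraries 7 of 13.

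All 20 cell cycle genes fell, with a median of -1.20. Mki67, a marker of cycling cells, stood at 404, 415, 305, 415 and 342 CPM at E16.5 and at 114, 93.1, 195 and 118 CPM at P3. Over the same stages the rest held 599 CPM and then 756 CPM of it, so members lay below the rest at both. Cdk1 fell from 102 to 17.3 CPM in members. All 20 genes also fell among members with at least 10% gate RNA, and 18 of 20 among members with under 5% hemoglobin. Erythroid markers fell in both of these subsets too. Cell cycle genes made up a smaller share of UMIs at 10 to 20% gate RNA, 0.184% at E16.5 and 0.0551% at P3, than at 3 to 5%, 0.346% and 0.248%.

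Of 20 genes of protein folding and secretion in the endoplasmic reticulum, 10 fell and none rose, with a median of -0.51, and with C and D as the only P3 libraries 7 fell and 1 rose. Ssr1, a subunit of the translocon-associated complex, fell from 198 to 58.4 CPM and Pdia6, a disulfide isomerase, from 343 to 162 CPM. Of 12 immediate early and heat shock genes tested, of 14 on the list, 10 fell. Fos fell from 321 to 35.5 CPM and Fosb from 105 to 7.66 CPM, while in the rest Fos stood at 156 and 129 CPM and Fosb at 24.5 and 20.6 CPM. The TrypLE step was used at E16.5 only and cannot be told apart from stage for these genes.

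Of 15 iron, copper and metallothionein genes, 5 rose and 4 fell. Among genes at least 2-fold above the rest 33.3% rose and 17% fell, and the counts of this list lie near those shares. Hepcidin (Hamp, the hormone that blocks iron export) stood at 24.8, 12.9, 39.3, 154 and 49.2 CPM at E16.5 and at 912, 996, 884 and 1786 CPM at P3 (log2 fold change 4.44 ± 0.77, SE, adjusted p = 0.0025). The metallothionein genes Mt2 and Mt1 fell from 1388 and 6373 CPM to 213 and 2383 CPM, and in the rest Mt2 stood at 939 and 121 CPM and Mt1 at 1914 and 322 CPM. Of 14 growth factor and binding protein genes tested, of 15 on the list, 8 rose and 2 fell. Igfbp1 rose from 705 to 2979 CPM and Igf1 from 10 to 57.4 CPM, and Kitl, the stem cell factor gene, fell from 30.3 to 6.70 CPM. The vascular growth factor gene Vegfa fell from 53.5 to 28.7 CPM, but with C and D as the only P3 libraries it did not pass (adjusted p = 0.187 by edgeR).

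Of 20 Notch and biliary genes only 8 had enough UMIs for the test, and 2 of them fell and none rose. Over all genes tested 21.8% fell, so the count of falls is near that share. Notch2, the main Notch receptor of hepatoblasts, fell from 34.6 to 9.33 CPM (log2 fold change -1.63 ± 0.24, SE, adjusted p = 4.4e-05), and Notch1 fell from 19.6 to 9.47 CPM. The adjusted p of Notch1 was 0.018 by edgeR, and it was above 0.05 without B (0.0581) or without D (0.0529). So it was at a gate of 10% (0.0716), with a mitochondrial limit of 10% (0.0810) and with C and D as the only P3 libraries (0.148). Hes1, a target gene of Notch, did not pass, at 18.9 ± 7.44 CPM (SD, n = 5) and 32.1 ± 18.8 CPM (SD, n = 4), with an adjusted p of 0.062 by edgeR. It did pass, with the same direction, by DESeq2 (adjusted p = 0.0367), and by edgeR at gates of 2, 5 and 10% (0.0271, 0.0298 and 0.0165) and without the shared library (0.0103), without B (0.0466) or without C (0.0388). Cholangiocyte markers summed to 0.00378 to 0.00526% of member UMIs at E16.5 and 0.000484 to 0.00249% at P3.

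Genotype was compared at E16.5 only, with 2 Jag1Ndr/Ndr libraries against the 3 others, and no gene passed. The share of members was 1.44% ± 0.120 (SD, n = 2) in Jag1Ndr/Ndr and 1.37% ± 0.520 (SD, n = 3) in the others (two-sided exact permutation test over 10 splits, p = 1, where 0.1 is the smallest it could give). Over 11318 genes, edgeR's quasi-likelihood test called 0 genes (0%), with 227 at an unadjusted p under 0.05, and DESeq2 called 5. Without the shared library edgeR called 10 genes, and without any other single library 1 or 2. In simulated data of this size the edgeR test recovered 77% of 4-fold and 34% of 2-fold changes. Jag1 itself was near the floor in members, at 1.41, 2.91 and 2.57 CPM in the others and 1.48 and 2.25 CPM in Jag1Ndr/Ndr, and a missense allele need not change its RNA.

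The 5 genes that DESeq2 called are named here after their values were seen. Ces1b, a liver carboxylesterase gene, stood at 4.94, 5.25 and 6.65 CPM in the others (72 UMIs) and had no UMI in either Jag1Ndr/Ndr library. Against a floor of 3 UMIs over both, it was at least 15.7-fold lower in Jag1Ndr/Ndr, and edgeR gave an adjusted p of 0.204, or 0.0329 without the shared library. Gadd45gip1, a mitochondrial ribosome protein gene, stood at 59.6, 55.4 and 46.3 CPM in the others and at 92 and 94.8 CPM in Jag1Ndr/Ndr (log2 fold change 0.87, adjusted p = 0.717 by edgeR). Tagln and Acta2, contractile genes of mesenchymal cells, stood lower in Jag1Ndr/Ndr, Tagln at 1.19 and 1.63 CPM against 7.58 to 20.5 CPM, at an adjusted p of 0.717 by edgeR for Tagln, or 0.0020 without the shared library. The embryonic globin gene Hba-x stood at 2.47, 3.11 and 5.36 CPM in the others and at 9.50 and 28.6 CPM in Jag1Ndr/Ndr, with an adjusted p of 1.00 by edgeR. Without Jag1Ndr/Ndr replicate 1 the adjusted p was 0.0119, but that leaves 1 Jag1Ndr/Ndr library, assumed to vary like the others. The groups did not overlap for any of the 5. These genes were picked from the same values and the share of all genes without overlap is not given, so no support is drawn.

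In the 20 pathway lists, the median log2 fold change of the tested genes by genotype lay between -0.19 and 0.11. Of their 294 genes tested edgeR called none, with 9 (3.06%, against 2.01% of all genes) at an unadjusted p under 0.05. DESeq2 called none, with 11 (3.74%, against 1.14% of all genes). All 8 macrophage markers and all 8 endothelial markers had a negative fold change in Jag1Ndr/Ndr members, with medians of -1.19 and -0.73 and none called by edgeR or DESeq2. At an unadjusted p under 0.05 there were 1 and 0 of them by edgeR and 3 and 3 by DESeq2, and with hemoglobin under 5% edgeR had 4 of the 8 endothelial markers. Of 8 mesenchymal markers 7 were negative, with a median of -0.73, but at a gate of 10% 4 of 7 were positive, with a median of 0.28. At that gate 1 of 8 macrophage and 1 of 8 endothelial markers were positive, with medians of -0.61 and -0.58. All 4 megakaryocyte markers tested were positive, with a median of 0.66, and the 1 tested at a gate of 10% was negative. None of these was called by edgeR or DESeq2 over all members. The part of the mesenchymal markers in the values of Tagln and Acta2 was not tested. The macrophage, endothelial and mesenchymal lists each summed to at most 0.0351% of member UMIs in any E16.5 library.

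At P3 the Jag1Ndr/Ndr label had library C and the Jag1Ndr/+ label library D, 1 library each, so no test was possible. Exact Poisson intervals at 95%, which cover counting error only, stood apart for 358 of 12277 genes (2.92%), 163 higher in C (1.33%) and 195 higher in D (1.59%). C had 465828 UMIs in 61 members and D 619741 UMIs in 91. Blood cell markers moved with these libraries: intervals stood apart for 5 of 8 erythroid, 5 of 8 neutrophil and 4 of 8 B cell markers, all higher in C, and hemoglobin made up 3.72% of member UMIs in C and 1.81% in D. Their part in the values of other genes was not tested. Counting intervals are narrow relative to the level of abundant genes, and lists of secreted proteins had many apart. These were 17 of 30 carrier, protease inhibitor and acute phase genes (7 higher in C, 10 in D), 7 of 21 coagulation genes (2 and 5), 5 of 13 apolipoprotein genes (all higher in D) and 7 of the 12 other hepatocyte markers (1 and 6). All 7 of these markers are already counted in the lists before them, so they add no further genes. The largest ratios toward C were in Cyp2f2, a periportal P450, at 64.4 CPM (interval 43.5 to 91.9) against 12.9 CPM (5.57 to 25.4), and in Serpina3k and Azgp1. Toward D they were in Ugt1a1, which conjugates bilirubin, at 6.44 CPM (1.33 to 18.8) in C and 46.8 CPM (31.3 to 67.2) in D, and in Acot1, an acyl-CoA thioesterase gene. A and B held 5.82 and 16.1 CPM of Ugt1a1, on the side of C. Reads of the UGT1A genes, which share exons, may have been divided in ways not given in the sources used here.

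Of 24 bile acid genes, 23 had a UMI in C or D, and intervals stood apart for none of them, which does not show that the libraries were alike. They included Slc10a1 (507 and 474 CPM), Abcb11 (142 and 190 CPM), Abcc2 (178 and 184 CPM), Cyp7a1 (68.7 and 100.04 CPM) and Cyp8b1 (152 and 129 CPM). Intervals stood apart for Hamp, at 884 CPM (801 to 974) in C and 1786 CPM (1683 to 1895) in D, where A and B held 912 and 996 CPM. Hes1 stood at 15 CPM (6.04 to 31.0) in C and 56.5 CPM (39.3 to 78.5) in D, with A and B at 37.0 and 19.9 CPM between them. These are differences between 2 libraries and not between genotypes.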

How the data were processed

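UMI counts per gene and barcode were deposited by the authors as 10x matrices. Per the submitters' processing notes, Cell Ranger 2.1.1, R 4.1.2, Seurat and mm10 were used, while the file headers give software 3.0.2 at P3 and 3.1.0 at E16.5. Totals ran from 75745209 to 288658950 UMIs per deposited matrix used. Single-cell barcodes are not replicates, so counts were summed over members per library, with 13 mitochondrial genes read for the 15% limit. The stages were compared over 22519 shared genes and genotype over the E16.5 list, after edgeR's filter on low counts, with TMM scaling and the quasi-likelihood test of edgeR 4.0.16 (R 4.3.3) at an adjusted p of 0.05. The code was tested on simulated counts, where it recovered 53% of 2-fold and 91% of 4-fold changes by stage. DESeq2 1.42.0, other gates and limits, removal of Scrublet's calls (scanpy 1.11.5) and leaving out each library were the alternatives. CPM use the shared genes, except by genotype.

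The members and lists were chosen with earlier results of these data known. Named by stage were the 12 genes with the largest change in each direction among called genes without overlap, at 20 CPM or more in the higher stage and at least 2-fold above the rest there, with gate, mitochondrial and hemoglobin genes left out, and 625 rose and 327 fell under that rule. By genotype none met it. For C and D, 5 in each direction were taken by ratio, with intervals apart and at least 20 UMIs. List members could be named with their values, and a few are not reported here. Replicate numbers were not treated as pairs, since same-numbered libraries did not all deviate together (correlations of deviations from -0.105 to 0.0523 by stage and from -0.140 to 0.153 by genotype). Intervals cover counting error only.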

Additional observations from a re-analysis of the deposited data

Results flagged for a closer look

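In 78 groups of 4 or 5 libraries, 7 held a value that stood far from the others by Dixon's test. Chance flags about 1 in 20 groups of continuous values, and no such share holds where the other libraries are at 0: the values of Serpina3m and Hsd17b6 at E16.5 and of Ptp4a1 at P3 rest on 2, 1 and 1 UMIs. Those of Cyp4a10 and Pck1 at E16.5 are also low, in genes that were high at P3. In members at E16.5, Jag1Ndr/Ndr replicate 1 held 0.606 CPM of Serpina3m beside 0 in the other libraries, and 1.51 CPM of Cyp4a10 beside 0 to 0.198 CPM. Hsd17b6 stood at 0.208 CPM in Jag1Ndr/Ndr replicate 2 and at 0 in the others. The shared library held 12.5 CPM of Pck1, where the others held 0 to 3.32 CPM. At P3, library A held 343 CPM of Cyp4a10 beside 166 to 190 CPM, and library B held 1.24 CPM of Ptp4a1 beside 0. Macrophage markers summed to 0.0603% of member UMIs in library B and to 0.0114 to 0.0195% in the other P3 libraries.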

How the results depend on the processing

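By stage, the alternatives called 3009 to 4662 genes, and gates of 2, 5 and 10% called 4662, 4136 and 3340. Of the 4390 genes, DESeq2 also called 4140, and C and D as the only P3 libraries 2739. With the replicate block 4291 genes passed by stage and 0 by genotype, where 324 had an unadjusted p under 0.05. Of the called genes named, 79 of 87 stayed called in every one of the 21 alternatives that tested them, and none turned. Ubd and Foxa1 were tested in 20 alternatives. Onecut1, Pygl and Saa4 did not pass (adjusted p = 0.0766, 0.0964 and 0.0502) without A and B and with the homozygous label as a term, nor C9 (0.274), Igf2bp3 (0.153), Notch1 (0.147) and Vegfa (0.202). Of those not called, Ass1 turned to -0.49 with C and D alone and -0.50 with that term, Fga to 0.16 and 0.15 with the same, and Fgg to -0.088 at a gate of 10%. Without 1 library Fgg lay between -0.19 and 0.21, below 0 without C or without D, and Trf between -0.13 and 0.021, above 0 without B.

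The difference in member share by stage was -0.566 to -0.830 percentage points without 1 library (-0.615 without C), and its sign held in every alternative. By genotype it went from 0.0646 to -0.00962 at a gate of 5%, -0.0562 at 10% and -0.0224 with a mitochondrial limit of 10%, and lay from -0.109 to 0.364 without 1 library (0.149 without Jag1Ndr/Ndr replicate 2). Genotype calls were 5 by DESeq2, 25 without the filter on low counts and 1 to 10 without 1 library, and Jag1 turned to 0.00292 at a gate of 2%. The cause was not tested. With 61 to 226 members per P3 library, genes under a few CPM rest on few UMIs there.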

Other observations

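At P3 some list genes set A and B apart from C and D, with no test, since these genes were picked after their values were seen. Baat, which joins bile acids to amino acids, stood at 32.8 and 55.9 CPM in members of A and B and at 4.29 and 4.84 CPM in C and D. Cebpb, a factor of the acute phase response, stood at 82.5 and 37.2 CPM and at 10.7 and 11.3 CPM. Hmox1, the heme oxygenase gene, stood at 38.1 and 38.5 CPM and at 4.29 and 4.84 CPM. Sult2a1, a sulfotransferase gene for steroids and bile acids, stood at 232 and 181 CPM and at 23.6 and 59.7 CPM. In the E16.5 libraries the ranges were 5.40 to 13.3 CPM for Baat, 76.7 to 108 CPM for Cebpb, 22.1 to 78.8 CPM for Hmox1 and 0.303 to 7.12 CPM for Sult2a1.

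A few further genes stood apart between C and D members beyond counting error. Dcn, a matrix proteoglycan gene of mesenchymal cells, stood at 8.59 CPM in C and 43.6 CPM in D, with A and B at 12.2 and 6.21 CPM. Dpagt1 and Gmppb, genes of protein glycosylation, stood at 47.2 and 49.4 CPM in C and at 11.3 and 12.9 CPM in D.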
